A study of Mus musculus with 60 samples.

Results

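Complement and coagulation proteins of the blood plasma are made mainly by the liver, and the transcripts of 45 genes of these cascades were described in the left liver lobe of mice after exposure to high-energy ions. The 45 genes were taken by name from the whole table of 38204 genes, and the RPKM values (reads per kilobase of transcript, scaled to the mapped reads of the library) of all annotated transcripts of a gene were summed in each library. The mice were male C3H/HeNCrl animals of 8 to 10 weeks that received 0.2 Gy over the whole body of 56Fe, 16O or 28Si ions, or no irradiation. Livers were taken 1, 2, 4, 9 and 12 months later from 3 mice per group, giving 20 groups, 60 livers and 15 livers for each treatment. The strain was chosen by the study as prone to liver tumours after irradiation, all mice were moved to another facility and quarantined after exposure, and each sample is a slice of whole liver that holds every cell type of the organ. The same 3 control mice of a time point served for all 3 ions, so that the 3 comparisons made at that time are not independent.

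Complement works as a chain of proteases. Antibody-bound C1, or mannose-binding lectins with their proteases, cleave C4 and C2 to build an enzyme that cleaves C3, factor B and properdin amplify this step, and C5 to C9 assemble into a pore in the target membrane. Coagulation is another protease chain, in which contact factors and tissue factor lead to thrombin, thrombin turns fibrinogen into fibrin, and plasmin dissolves the clot, with serpins and protein C holding the chain in check. Hepatocytes secrete most of these proteins, and several of them, fibrinogen in particular, are acute phase proteins whose transcripts rise when interleukin-6 and interleukin-1 reach the liver.

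The libraries held 11412658 to 40567935 mapped read pairs (median 18891357). The 8 hepatocyte markers summed to 19260 to 55143 RPKM per liver, whereas 12 Kupffer cell markers summed to 45.1 to 772 RPKM. Markers of neutrophils summed to 0.23 to 103 RPKM, with the highest sums in 16O mouse 2 and 56Fe mouse 1 of 12 months. In whole tissue, fewer cells of a type and less RNA per cell cannot be told apart. A gene was tested where it reached 0.5 RPKM in at least 3 of the 6 libraries of a comparison, and it was called differentially expressed at a Benjamini-Hochberg adjusted p of at most 0.05 in limma, taken over all genes tested.

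The 45 genes spanned a wide range of levels. Fibrinogen chains and antithrombin were the most abundant per length, with median levels over the 60 livers of 1645 RPKM for Fga, 1609 RPKM for Fgg and 1385 RPKM for Serpinc1, the antithrombin gene. C3, the central component of complement, followed at a median of 1117 RPKM (range 582 to 3000), Vtn, the vitronectin gene, at 906 RPKM and Fgb at 874 RPKM. At the other end, Cfp, which encodes properdin and is expressed chiefly by myeloid cells, had a median of 5.12 RPKM (2.88 to 38.8), C2 had 18.8 RPKM, Pros1 (protein S) 22.9 RPKM and Cfb (factor B) 25.04 RPKM. Cfd, the adipocyte-derived factor D, was listed at 0 in 55 of 60 libraries and did not exceed 1.28 RPKM, so that 44 of the 45 genes could be tested.

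**Figure D1:**
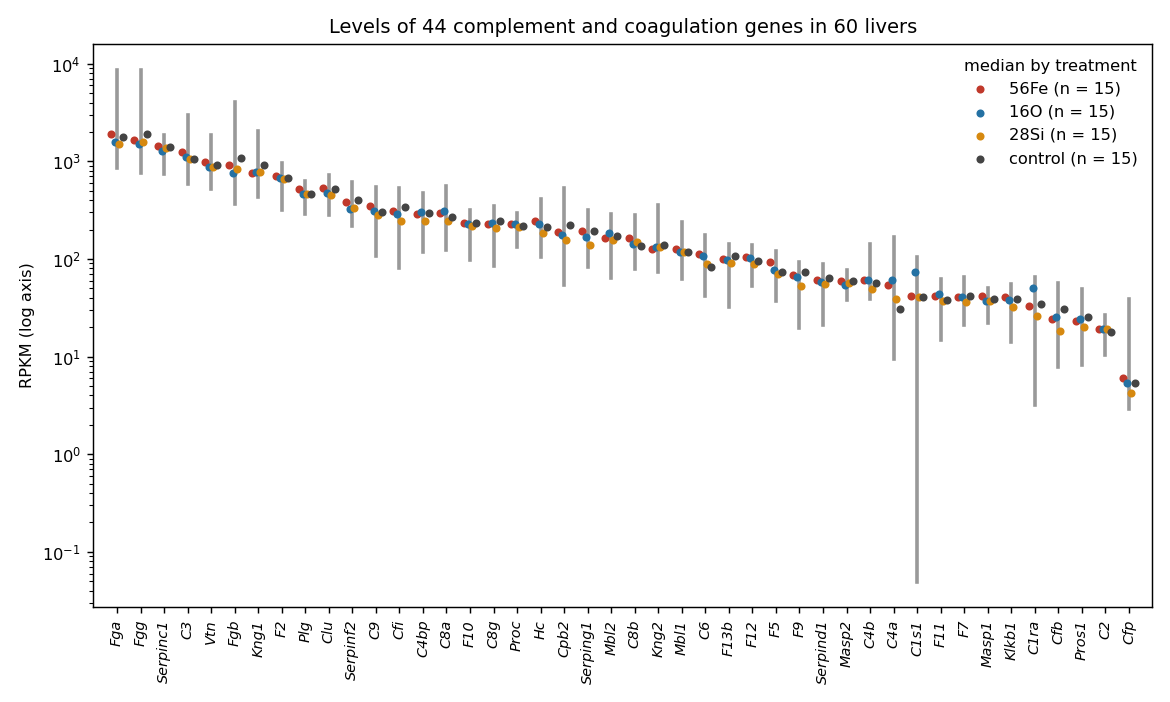
Level of 44 genes in 60 livers, in RPKM on a log axis, with genes in the order of their median. The grey line of a gene runs from its lowest to its highest liver and the symbols give the medians of the 15 livers of each treatment, which lie close together against ranges as wide as 863 to 8694 RPKM for Fga.

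Proteins that act in one complex were compared by the ratio of their transcripts. The alpha chain of C8 exceeded the beta chain with a C8a to C8b ratio of 1.75 ± 0.29 (SD, n = 60 livers), and the ratio of C8g to C8b was 1.27 ± 0.35. The kininogen genes Kng1 and Kng2, the source of bradykinin, kept a ratio of 5.98 ± 0.47. The C4 paralogues varied more, with a C4a to C4b ratio of 0.72 ± 0.31 that ran from 0.23 to 1.27. These values pool times that differ, since the mean C4a to C4b ratio was 0.37 at 1 month and 1.00 at 12 months. At 9 months the ratio of C8g to C8b was 1.06 to 1.34 with 56Fe, 0.99 to 1.30 with 16O and 0.97 to 1.59 with 28Si, against 1.88 to 2.56 in controls, without overlap. The same shared controls also stood apart in Serpinc1 to F2 (2.33 to 2.48, against 1.65 to 2.17 in irradiated mice) and in C4a to C4b (0.51 to 0.63, against 0.69 to 1.27). For C8a to C8b, Kng1 to Kng2, C6 to C9 and the fibrinogen chains, controls and irradiated mice of 9 months overlapped. How often ratios of other gene pairs separate these mice was not counted. Stretches of 36 bases identical to the partner gene made up 44.9% of the longest C4a transcript and 24.4% of that of Kng1, and reads from such stretches could have been assigned to either partner.

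Irradiated livers of each ion and time were set against the 3 controls taken at that time. Library names begin with a letter that differs by treatment and end in an S number. Some S numbers occur in both control and ion libraries. The labels explain neither, and any separate handling of the treatments could not be told apart from treatment. Of 44 genes, 56Fe irradiated livers had 1 called at 1 month (background over all genes 1.19%), 0 at 2 months (0%), 0 at 4 months (0.532%), 3 at 9 months (3.65%) and 0 at 12 months (0%). In 16O irradiated livers 1 gene was called at 1 month (1.6%), 0 at 2 months (0%), 0 at 4 months (0%), 3 at 9 months (1.06%) and 0 at 12 months (0.00878%). In 28Si irradiated livers 0 were called at 1 month (0.244%), 0 at 2 months (0.0181%), 1 at 4 months (0.382%), 0 at 9 months (0.142%) and 0 at 12 months (0.0176%). The calls fell on 6 genes, F11, C4a, C6, C8b, Mbl2 and Serping1, and lay at 1, 4 and 9 months.

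Where limma called 0 genes, the counts at an unadjusted p under 0.05 were 7, 1 and 0 of 44 for 56Fe at 2, 4 and 12 months, against 12.4%, 12.4% and 3.43% of all genes. For 16O at 2, 4 and 12 months they were 5, 1 and 0 of 44, against 9.63%, 6.1% and 2.14%. For 28Si they were 8, 6, 10 and 4 of 44 at 1, 2, 9 and 12 months, against 13.3%, 8.33%, 11.6% and 7.51%. The smallest adjusted p of any of the 44 genes was 0.289, 0.274 and 1.00 for 56Fe at 2, 4 and 12 months, and 0.474, 0.807 and 0.991 for 16O.

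Most of the 44 genes leaned the same way at some times without passing the test. At 1 month 36 were higher in 56Fe, 34 in 16O and 36 in 28Si irradiated livers than in the shared controls, with median log2 fold changes of 0.12, 0.12 and 0.16, where the median of all genes was between -0.01 and 0.00. At 9 months 26, 37 and 37 were higher, with medians of 0.08, 0.13 and 0.31, and 19, 13 and 12 of 44 had ion and control mice that did not overlap as deposited, against 28.1%, 20.3% and 19.5% of all genes. Fewer than 15 of 44 were higher in 4 comparisons, with 10 for 16O at 2 months (median -0.14), 10 for 28Si at 4 months (median -0.12), 14 for 56Fe at 12 months (median -0.05) and 8 for 28Si at 12 months (median -0.19). For 28Si at 4 months this count was 10 after scaling, 0 on the RPKM as deposited, where the median of all genes was itself -0.18, and 2 when the scaling used all features. Scaling also moved the count of higher genes at 1 month for 56Fe from 36 to 28 with all features, at 2 months for 28Si from 31 to 21 as deposited, at 2 months for 16O from 10 to 5 as deposited, at 12 months for 16O from 25 to 15 as deposited, and at 12 months for 56Fe from 14 to 21 as deposited.

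**Figure D2:**
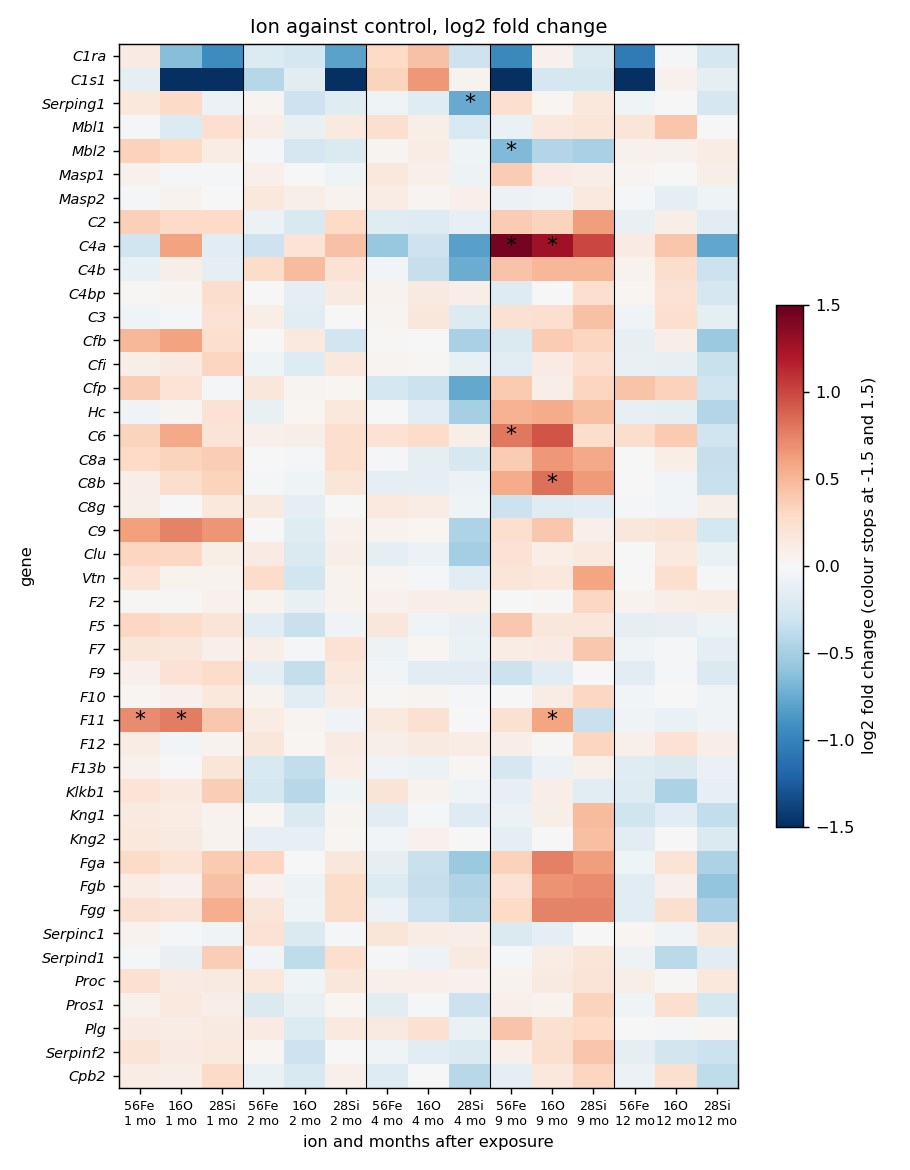
Log2 fold change of 44 genes in 15 comparisons of an ion with the controls of the same time, in colour from -1.5 to 1.5, with values beyond these ends in the end colours. An asterisk marks a gene with an adjusted p of at most 0.05, such as F11 at 1 month and C4a at 9 months.

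C1 starts the classical pathway. Its proteases are encoded by C1ra and C1s1, which neighbour the paralogues C1rb and C1s2 on chromosome 6 (GRCm38, chr6:124512405-124523443 for C1ra, 124530345-124542359 for C1s1, 124570294-124581171 for C1rb and 124624625-124636085 for C1s2). Neither C1ra nor C1s1 was called in any comparison. C1s1 nevertheless had the lowest fold changes of the set, at -2.92 for 56Fe at 12 months, -2.68 for 56Fe at 9 months and -2.52 for 16O at 1 month. At 9 months the 56Fe irradiated mice had 77.3, 0.45 and 81.6 RPKM of C1s1, against 101, 91.7 and 94.9 RPKM in control mice (adjusted p = 0.312, limma). A single mouse was near 0 while the other 56Fe irradiated mice lay just below the controls, and without 56Fe mouse 2 the log2 fold change was -0.33 (adjusted p between 0.173 and 0.474 over the left-out libraries).

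Across all 60 livers the C1 genes fell into 3 separate ranges, a pattern noticed after the values had been seen and given here without a test. C1rb made up 3.61 to 7.82% of the summed C1ra and C1rb level in 40 mice, 47.4 to 52.2% in 15 mice and 88.0 to 89.9% in 5 mice. No mouse lay between these ranges. The level of C1s1 was 32.6 to 105 RPKM in the 40 mice, 15.1 to 42.3 RPKM in the 15 mice and 0.050 to 0.45 RPKM in the 5 mice. The summed level of C1ra and C1rb differed less, at 21.5 to 69.6 RPKM, 23.3 to 65.4 RPKM and 27.8 to 75.8 RPKM over the same ranges of mice. The ratio of C1s1 to that sum was 1.08 to 1.74 in the 40 mice, 0.48 to 0.79 in the 15 mice and 0.0013 to 0.0115 in the 5 mice, again without overlap.

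The mice with the highest C1rb share came from 5 different groups. They were 16O mouse 1 and 28Si mouse 2 of 1 month, 28Si mouse 2 of 2 months, 56Fe mouse 2 of 9 months and 56Fe mouse 1 of 12 months, with 0.050, 0.32, 0.32, 0.45 and 0.14 RPKM of C1s1. The mice of the same times outside this range held 20.6 to 52.7 RPKM at 1 month, 15.1 to 48.6 RPKM at 2 months, 40.9 to 105 RPKM at 9 months and 34.8 to 89.3 RPKM at 12 months. In 5 of 5 mice C1ra, C1s1 and C1s2 lay below, and C1rb above, every mouse of their time that was not itself in the highest range. The flanking genes C1rl (124493113-124510643) and Lpcat3 (124663027-124704418) lay within the range of those other mice in 5 of 5.

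By treatment, the counts of mice in the low, middle and high range of the C1rb share were 8, 5 and 2 for 56Fe, 12, 2 and 1 for 16O, 9, 4 and 2 for 28Si and 11, 4 and 0 for controls. The labels give 1 strain and no genotype. Stretches of 36 bases shared with the paralogue made up 54.4% of the longest C1ra transcript, 66.9% of that of C1rb, 32.4% of that of C1s1 and 35.9% of that of C1s2, and the antisense gene Gm16567 overlaps C1s1, with no source stating that the counting used strand. Their part in the 3 ranges was not tested.

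**Figure D3:**
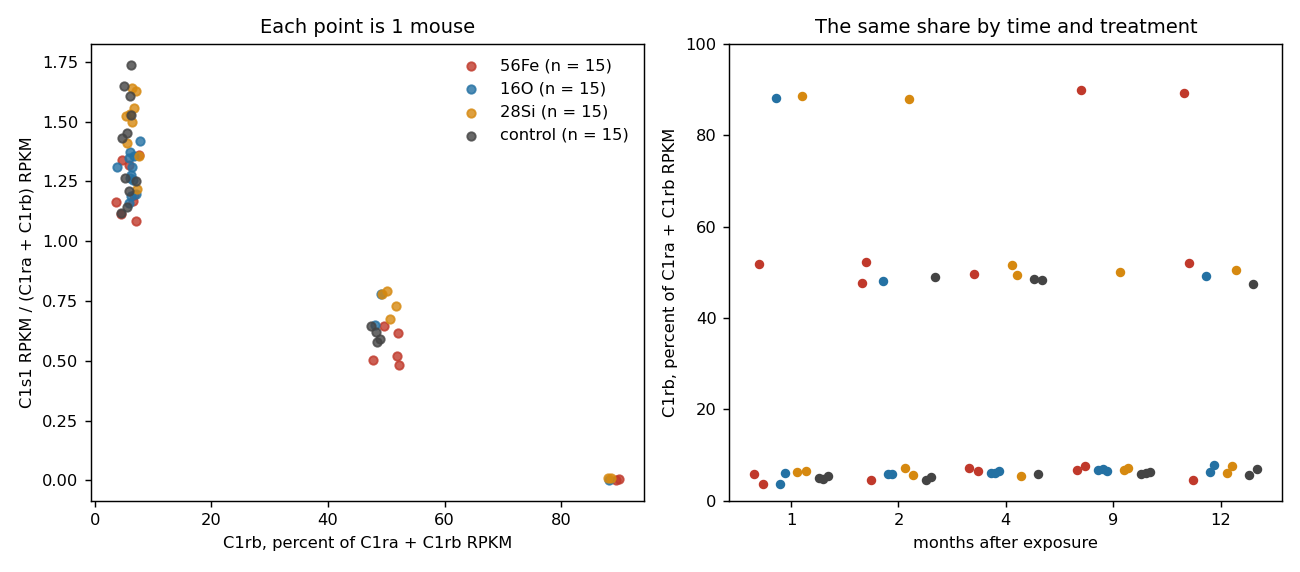
Left, the ratio of C1s1 to summed C1ra and C1rb level against the share of C1rb in that sum (%), 1 point per mouse. Right, the C1rb share (%) by months and treatment; 40 mice lie at 3.61 to 7.82%, 15 at 47.4 to 52.2% and 5 at 88.0 to 89.9%, and no control mouse is in the highest range.

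The lectin pathway is started by mannose-binding lectins, of which Mbl2 changed with 56Fe. At 9 months Mbl2 stood at 166, 162 and 205 RPKM in 56Fe irradiated mice and at 291, 271 and 273 RPKM in control mice. All irradiated mice lay below all controls, and these controls were the highest of the study, since controls of the other times held 63.7 to 209.6 RPKM. Mbl2 fell in 56Fe irradiated livers by 0.66 on the log2 scale (SE 0.10, adjusted p = 0.0300, limma). The call was lost without 56Fe mouse 1 (adjusted p = 0.0830), 56Fe mouse 2 (0.127), control mouse 1 (0.0922) or control mouse 2 (0.128).

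Mbl1, Masp1 and Masp2, the other lectin pathway genes among the 45, were not called with any ion. Mbl1, the other mannose-binding lectin, had log2 fold changes between -0.22 and 0.42, and the lectin-associated proteases Masp1 and Masp2 had changes between -0.08 and 0.38 and between -0.15 and 0.16. The smallest adjusted p was 0.425 for Mbl1, 0.150 for Masp1 and 0.487 for Masp2. Masp1 and Masp2 thus moved little in any of the 15 comparisons.

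C4 is cleaved by both starting pathways, and of its 2 paralogues C4a had the largest called change of the set. The annotation lists the C4a gene as a processed transcript and C4b as protein coding. Every annotated C4a transcript is listed as a processed transcript or a retained intron. Whether the C4a change reached C4 protein was not tested. At 9 months C4a had 85.3, 94.97 and 74.7 RPKM in 56Fe irradiated mice, 71.0, 74.7 and 82.6 RPKM in 16O irradiated mice and 57.2, 76.0 and 43.6 RPKM in 28Si irradiated mice, against 35.3, 30.7 and 27.7 RPKM in control mice. Every irradiated mouse lay above every control of this time. C4a rose by a log2 fold change of 1.43 (SE 0.14, adjusted p = 0.0123, limma) with 56Fe and of 1.27 (SE 0.12, adjusted p = 0.0015) with 16O, whereas the 28Si difference of 1.00 (SE 0.21) had an adjusted p of 0.225. The same 3 control mice entered these 3 comparisons, and their C4a was lower than in controls of 4 months (94.6, 59.99 and 82.8 RPKM) and of 12 months (51.2, 104.1 and 68.8 RPKM). The 56Fe call was lost without 56Fe mouse 1 (adjusted p = 0.0631) or control mouse 2 (0.0890), and the 16O call held without any single library (0.00457 to 0.0115) but had an adjusted p of 0.0637 when all 60 libraries entered 1 fit.

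C4b, its paralogue, was not called at 9 months. Its level was 73.7 ± 7.22 RPKM in 56Fe irradiated and 54.5 ± 1.81 RPKM in control livers (SD, n = 3 each, log2 fold change 0.42, adjusted p = 0.0757, limma). The ratio of C4a to C4b was accordingly 1.16 ± 0.12 with 56Fe, 1.00 ± 0.22 with 16O and 0.82 ± 0.21 with 28Si, against 0.57 ± 0.06 in controls of 9 months. At 4 months both C4 genes were lower with 28Si without being called. C4a was 39.0 ± 4.18 RPKM in 28Si irradiated and 79.1 ± 17.6 RPKM in control livers (adjusted p = 0.174), and C4b was 44.4 ± 5.62 RPKM in 28Si irradiated and 87.4 ± 27.8 RPKM in control livers (adjusted p = 0.261).

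C2 and C3, which form the next enzyme with C4, were not called. The smallest adjusted p was 0.121 for C2, with 22.6 ± 3.14 RPKM in 56Fe irradiated and 17.3 ± 2.82 RPKM in control livers at 9 months. For C3 it was 0.516, with log2 fold changes between -0.21 and 0.44 over the 15 comparisons. Cfb, the factor B protease of the alternative pathway, came closest at 1 month, at 13.4 ± 0.90 RPKM in 56Fe irradiated and 9.61 ± 1.87 RPKM in control livers (log2 fold change 0.50, adjusted p = 0.0627).

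The terminal components form the membrane pore, and 2 of them were called at 9 months. C6, which binds to freshly cleaved C5, had 120.0, 105.7 and 97.4 RPKM in 56Fe irradiated mice against 80.9, 50.7 and 56.7 RPKM in control mice. The groups did not overlap, and C6 rose by a log2 fold change of 0.79 (SE 0.17, adjusted p = 0.0435, limma). With 16O, C6 averaged 120 ± 22.5 RPKM against 62.8 ± 16.0 RPKM in controls and just missed the threshold (log2 fold change 0.94, SE 0.18, adjusted p = 0.0501). The gene value sums all transcripts, and the short C6-202 (921 bases) had 29.1, 17.6 and 1.55 RPKM with 56Fe, against 1.29, 0.77 and 0.30 RPKM in controls. With 16O, C6-202 averaged 37.4 RPKM against 0.79 RPKM. C6-204 averaged 47.8 against 32.1 RPKM, C6-203 16.1 against 9.76 RPKM and C6-201 18.9 against 20.2 RPKM. The 56Fe call on C6 was lost without 56Fe mouse 1 (0.104), 56Fe mouse 2 (0.149), control mouse 1 (0.0699), control mouse 2 (0.158) or control mouse 3 (0.0583).

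Markers of other cells also differed between 56Fe irradiated and control livers of 9 months. Of the Kupffer cell markers 11 of 11 tested were higher with 56Fe, 0 of them called, and their sums of 169 to 277 RPKM with 56Fe and 113 to 200 RPKM in controls overlapped. Of 10 sinusoidal endothelial markers 1 was higher. Among hepatocyte markers Serpina1c, an antitrypsin gene, fell to 803 ± 53.2 RPKM with 56Fe, against 1249 ± 140 RPKM in controls (log2 fold change -0.64, adjusted p = 0.0362, limma). Of the 8 hepatocyte markers 3 were higher with 56Fe, Serpina1c alone was called, and the sums of the list overlapped. The part of these markers in the C4a, C6 and Mbl2 differences was not tested.

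C8b, the beta chain of C8, had 268, 265 and 260 RPKM in 16O irradiated mice of 9 months, against 185, 129 and 135 RPKM in control mice. The 16O values were close together and all above the controls, of which mouse 1 was the highest. C8b rose by a log2 fold change of 0.82 (SE 0.14, adjusted p = 0.0335, limma), and with 56Fe it was 218 ± 5.73 RPKM against 150 ± 30.8 RPKM (log2 fold change 0.55, adjusted p = 0.0604). The 16O call was lost without 16O mouse 1 (0.0628), 16O mouse 2 (0.0751), 16O mouse 3 (0.0803), control mouse 2 (0.143) or control mouse 3 (0.0954). Marker sums that did not overlap in the 16O comparison were those of neutrophils, red cells and sinusoidal endothelium. Neutrophil markers summed to 4.56 to 10.8 RPKM in 16O irradiated and 2.05 to 3.65 RPKM in control livers, and only 2 of 7 reached the level for a test. Red cell markers summed to 130 to 143 RPKM and 162 to 350 RPKM, and sinusoidal endothelial markers to 79.3 to 83.5 RPKM and 94.9 to 119 RPKM. None of these markers was at 0 in all 6 livers, and their part in the 9-month differences was not tested.

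C8a, C8g, C9 and Hc, the remaining terminal genes, were not called. C8a, the alpha chain, averaged 481 ± 64.4 RPKM in 16O irradiated and 307 ± 61.2 RPKM in control livers of 9 months (adjusted p = 0.137), and C8g, the gamma chain, was lower with 56Fe at 261 ± 28.0 RPKM against 325 ± 27.7 RPKM (adjusted p = 0.0841). C9, which polymerises into the pore, was highest against controls at 1 month. It averaged 208 ± 11.3 RPKM with 56Fe, 230 ± 66.9 RPKM with 16O and 230 ± 63.5 RPKM with 28Si, against 139 ± 31.5 RPKM in the shared controls (adjusted p = 0.0528, 0.0730 and 0.140). Hc, the C5 gene, had its smallest adjusted p of 0.121 at 4 months, with 190 ± 38.5 RPKM in 28Si irradiated and 299 ± 32.8 RPKM in control livers.

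Regulators keep complement off host cells, and Serping1, the C1 inhibitor that also blocks the contact factors, was the only gene of the set called with 28Si. At 4 months it had 111.2, 82.9 and 138.5 RPKM in 28Si irradiated mice, against 191.2, 224.1 and 210.5 RPKM in control mice. These RPKM, and the others given for this comparison, are before scaling. In 28Si mouse 2 only 56.0% of mapped reads fell in annotated transcripts, the lowest share of the livers of 4 months. The share was 73.3% in 28Si mouse 1 and 82.0% in 28Si mouse 3. The groups did not overlap, and Serping1 fell by 0.76 on the log2 scale (SE 0.10, adjusted p = 0.0242, limma). The call was lost without 28Si mouse 1 (0.150), 28Si mouse 2 (0.125) or control mouse 3 (0.0791), and when all 60 libraries entered 1 fit (0.260). Properdin, clusterin (Clu, which blocks the pore) and C9 were also lower in this comparison, each at an adjusted p of 0.0860. Cfp was 4.31 ± 0.55 RPKM in 28Si irradiated and 8.37 ± 0.72 RPKM in control livers, and Clu was 360 ± 71.9 RPKM in 28Si irradiated and 573 ± 31.3 RPKM in control livers.

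Markers of other cell types also differed in the 28Si comparison of 4 months. Their sums are RPKM as deposited, where the median log2 fold change of all genes was -0.18. The lists given are those whose sums did not overlap. Kupffer cell markers summed to 88.3 to 110 RPKM in 28Si irradiated and 154 to 178 RPKM in control livers, and 0 of 11 tested markers were higher with 28Si. Of these, Cd5l, a macrophage protein, fell (22.97 ± 2.13 against 43.5 ± 3.30 RPKM, log2 fold change -0.74, adjusted p = 0.0288, limma). Red cell markers summed to 141 to 156 RPKM and 177 to 185 RPKM, and T cell markers to 0.34 to 0.77 RPKM and 0.20 to 0.27 RPKM, in 28Si irradiated and control livers. None of these markers was at 0 in all 6 livers, and their part in the lower complement levels was not tested. On the RPKM as deposited 18 of 44 genes had groups that did not overlap (15.6% of all genes), and after scaling 17 did (18.2%), of which 16 were lower and 1 was higher with 28Si.

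Cfi, C4bp and Vtn, regulators that also belong to the 45 genes, were not called in any comparison. Cfi (factor I, which inactivates C3b and C4b) had log2 fold changes between -0.33 and 0.32, C4bp (C4b-binding protein, the cofactor of factor I) between -0.25 and 0.26, and Vtn, whose product binds the forming pore, between -0.28 and 0.60. The smallest adjusted p was 0.408 for Cfi, 0.289 for C4bp and 0.358 for Vtn.

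**Figure D4:**
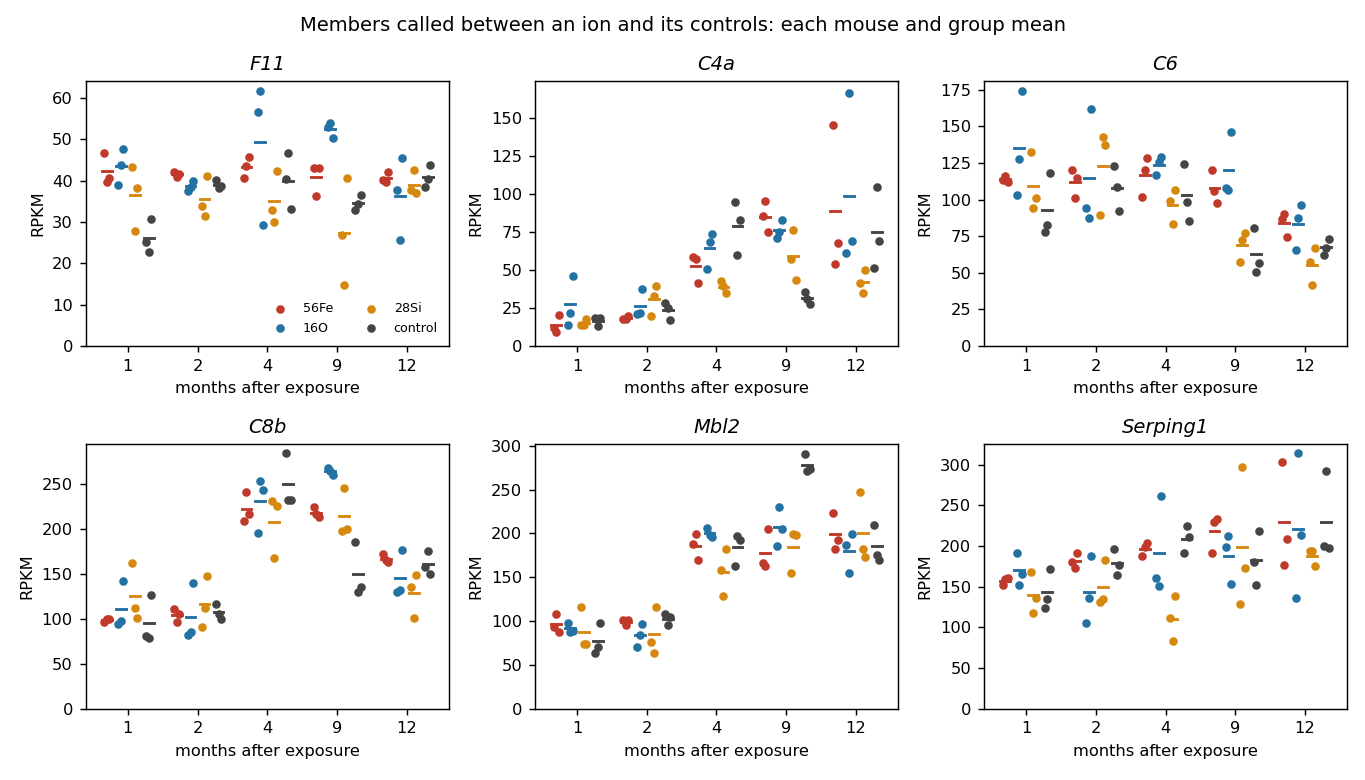
RPKM of the 6 genes called in any comparison of an ion with its controls, F11, C4a, C6, C8b, Mbl2 and Serping1, in each of 60 mice by months after exposure, with a bar at the mean of each group of 3. At 9 months C4a lies at 43.6 to 94.97 RPKM in irradiated mice and at 27.7 to 35.3 RPKM in controls.

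In coagulation, the contact factor F11 was the gene called most often. Factor XI amplifies thrombin formation once clotting has begun. At 1 month F11 had 46.7, 39.7 and 40.5 RPKM in 56Fe irradiated mice, 38.9, 43.8 and 47.7 RPKM in 16O irradiated mice and 43.3, 27.8 and 38.2 RPKM in 28Si irradiated mice, against 25.1, 22.7 and 30.8 RPKM in control mice. The 56Fe and 16O mice all lay above these controls, while 28Si mouse 2 lay among them. F11 rose with 56Fe (log2 fold change 0.71, SE 0.10, adjusted p = 0.0098, limma) and with 16O (0.77, SE 0.13, adjusted p = 0.0176). The controls of 1 month, shared by both comparisons, were below those of 2 months, which held 40.2, 38.2 and 38.7 RPKM.

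These F11 calls depended on single livers. With 56Fe the adjusted p was 0.0686 without 56Fe mouse 2, 0.0577 without 56Fe mouse 3 and 0.0504 without control mouse 2. With 16O it was 0.0760 without 16O mouse 2, 0.0551 without 16O mouse 3 and 0.0766 without control mouse 2. Among hepatocyte markers, Tat, an enzyme of tyrosine breakdown, fell in the same comparisons. It had 147 ± 61.3 RPKM with 56Fe and 157 ± 22.9 RPKM with 16O, against 354 ± 122 RPKM in controls. Of the 8 hepatocyte markers 3 were higher with 56Fe and 3 with 16O, and Tat alone was called. The sums of the hepatocyte markers overlapped with those of controls for both ions. With 56Fe at 1 month the marker sums that did not overlap were those of B cells and platelets. B cell markers summed to 0.67 to 0.95 RPKM, against 0.16 to 0.41 RPKM in controls, and 0 of 5 reached the level for a test. Platelet markers summed to 1.79 to 1.97 RPKM, against 1.25 to 1.78 RPKM, and 1 of 4 was tested, with 0 called. The part of Tat or of any of these markers in the F11 difference was not tested.

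At 9 months F11 was called with 16O alone. It had 52.96, 53.9 and 50.2 RPKM in 16O irradiated mice, against 32.8, 34.4 and 36.5 RPKM in control mice, without overlap. F11 rose by a log2 fold change of 0.59 (SE 0.11, adjusted p = 0.0442, limma). The call was lost without any one of the 6 livers, at 0.0726, 0.0908 and 0.0874 without 16O mouse 1, 2 or 3, and at 0.169, 0.165 and 0.0685 without control mouse 1, 2 or 3. In 28Si irradiated mice of that time F11 was 26.8, 14.8 and 40.5 RPKM, on both sides of the controls.

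The other clotting proteases and cofactors among the 45 genes were not called in any comparison. Prothrombin (F2), the precursor of thrombin, had log2 fold changes between -0.12 and 0.31, and F12, which starts the contact pathway, between -0.04 and 0.32. Plasma prekallikrein (Klkb1), the protease that F12 activates, lay between -0.48 and 0.37, and the kininogens Kng1 and Kng2 between -0.37 and 0.48 and between -0.21 and 0.45. For F10, which cleaves prothrombin, for its cofactor F5 and for F7, the partner of tissue factor, the smallest adjusted p was 0.402, 0.137 and 0.381. F9, the protease that factor XI activates, came closest at 9 months, at 70.4 ± 2.46 RPKM in 56Fe irradiated and 87.9 ± 3.99 RPKM in control livers (log2 fold change -0.33, adjusted p = 0.0993). F13b, the carrier subunit of the fibrin-crosslinking factor, had its smallest adjusted p of 0.120 in the same comparison, with a log2 fold change of -0.25.

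The clotting inhibitors and fibrinolytic genes among the 45 were likewise not called. Antithrombin (Serpinc1) had log2 fold changes between -0.22 and 0.22, and heparin cofactor II (Serpind1), a thrombin inhibitor, between -0.40 and 0.37. Protein C (Proc), which inactivates F5, lay between -0.07 and 0.22, and its cofactor Pros1 lay between -0.33 and 0.34. Plg, the plasminogen gene, averaged 582 ± 28.1 RPKM in 56Fe irradiated and 431 ± 50.1 RPKM in control livers of 9 months (log2 fold change 0.43, adjusted p = 0.0840). The plasmin inhibitor Serpinf2 and the fibrinolysis inhibitor Cpb2 had smallest adjusted p values of 0.391 and 0.252, both with 28Si at 4 months.

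Fibrinogen is encoded by 3 neighbouring genes on chromosome 3, Fga, Fgb and Fgg for its alpha, beta and gamma chains. At 9 months Fga had 3180, 3582 and 2600 RPKM in 16O irradiated mice against 1782, 1735 and 1954 RPKM in control mice. Fgb had 1852, 1985 and 1515 RPKM with 16O against 1097, 1073 and 1139 RPKM in controls, and Fgg had 3514, 3949 and 2724 RPKM against 1994, 1924 and 2070 RPKM. The groups did not overlap for any chain, yet none was called (log2 fold change 0.75, 0.67 and 0.74, adjusted p = 0.0968, 0.0924 and 0.112 for Fga, Fgb and Fgg, limma). In 28Si irradiated mice of 9 months the values of Fga were 1937, 4962 and 1845 RPKM, so that a single mouse was far above the others. At 12 months Fgb was 854 ± 143 RPKM with 28Si against 1315 ± 333 RPKM in controls (log2 fold change -0.60, adjusted p = 0.631).

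The promoters of the fibrinogen genes are shown because the 3 chains moved together across livers, and because interleukin-6 acts on liver genes through STAT3 and C/EBP factors. Each sequence runs from 250 bases before to 50 bases after the start of the gene in RefSeq on GRCm38.p6, at chr3:83025903-83026202 on the plus strand for Fga, chr3:83049814-83050113 on the minus strand for Fgb and chr3:83007474-83007773 on the plus strand for Fgg. Capitals mark matches to the STAT motif TTCNNNGAA, which reads the same on both strands, or to the C/EBP motif TTGCNNAA, which reads TTNNGCAA on the other strand.
Fga: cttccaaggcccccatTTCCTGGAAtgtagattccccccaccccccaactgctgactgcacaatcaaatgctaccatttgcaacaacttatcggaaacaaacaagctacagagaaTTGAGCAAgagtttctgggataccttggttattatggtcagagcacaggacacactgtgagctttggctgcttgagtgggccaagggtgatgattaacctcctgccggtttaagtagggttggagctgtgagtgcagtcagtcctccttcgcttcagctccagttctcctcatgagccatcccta
Fgb: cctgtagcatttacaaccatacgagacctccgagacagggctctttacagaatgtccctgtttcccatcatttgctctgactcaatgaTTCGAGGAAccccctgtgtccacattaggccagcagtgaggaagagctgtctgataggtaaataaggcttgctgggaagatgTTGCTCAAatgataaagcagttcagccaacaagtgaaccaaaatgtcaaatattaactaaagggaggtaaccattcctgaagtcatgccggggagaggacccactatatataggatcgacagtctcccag
Fgg: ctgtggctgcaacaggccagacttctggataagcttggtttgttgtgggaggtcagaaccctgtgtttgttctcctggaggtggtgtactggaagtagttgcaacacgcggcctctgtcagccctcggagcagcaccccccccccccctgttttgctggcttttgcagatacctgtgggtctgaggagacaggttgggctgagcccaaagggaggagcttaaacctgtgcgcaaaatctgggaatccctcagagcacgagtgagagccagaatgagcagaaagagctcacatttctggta

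Fga and Fgb each held 1 STAT match, at -234 and -162 from the start, and 1 C/EBP match, at -135 and -80, whereas the Fgg window held neither set of letters. Of the 34 members with a matched promoter, 8 (23.5%) held the STAT motif and 12 (35.3%) the C/EBP motif. Of all 32851 windows of the same length, 8.3% held the STAT motif and 10.8% the C/EBP motif. The shares of members count genes and the others count windows, so they are not directly comparable, and their difference was not tested. A motif of the transcription factor HNF1 was also searched. It was in 0 of the 34 members and in 3 of the 32851 windows. The STAT matches were in C1ra, C8a, F9, Fga, Fgb, Masp2, Pros1 and Vtn. A match describes letters and not a bound site.

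The livers with the most fibrinogen transcript also held the most serum amyloid A transcript, and those that came next held less. The 5 livers with the most Fga were 16O mouse 2 of 12 months (8694 RPKM), 28Si mouse 2 of 9 months (4962 RPKM), 16O mouse 3 and control mouse 3 of 4 months (4253 and 4218 RPKM) and 56Fe mouse 1 of 12 months (3949 RPKM). Saa1, a serum amyloid A gene of the acute phase, had 15583, 9834, 13635, 3842 and 3686 RPKM in these livers, in the same order, against 34.7 RPKM in the liver with the least Fga, control mouse 1 of 1 month. The livers next in Fga, 16O mouse 2 and 16O mouse 1 of 9 months and 56Fe mouse 2 of 4 months, had 3582, 3180 and 3067 RPKM of Fga with 385, 748 and 212 RPKM of Saa1. Neutrophil markers summed to 103, 29.04, 10.1, 19.1 and 85.1 RPKM and Kupffer cell markers to 515, 342, 200, 177 and 772 RPKM in the 5 livers with the most Fga, and Cfp, the properdin gene, had 30.6, 16.2, 8.40, 8.94 and 38.8 RPKM. The livers of 12 months among them held the most neutrophil markers and the most Cfp. One of the 5 livers was a control.

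Over the 60 livers, the genes outside the fibrinogen cluster whose log2 level followed the median of the 3 chains most closely were Serpina10 (r = 0.93, Spearman's rho 0.81), Hp (0.92 and 0.83), Slc41a2 (0.91 and 0.87), Qsox1 (0.91 and 0.83) and Lbp (0.91 and 0.81) among 12731 genes. Without the 2 livers farthest from the median of the fibrinogen level, 16O mouse 2 of 12 months and 28Si mouse 2 of 9 months, r was 0.89, 0.88, 0.89, 0.87 and 0.84. Within time points r was 0.95, 0.91, 0.90, 0.90 and 0.91. Among the complement and coagulation genes Mbl1 (0.83), Cpb2 (0.82) and C3 (0.80) were nearest, with 0.85, 0.90 and 0.78 within time points. F11 (-0.49) and Masp1 (-0.46) had the lowest r over all livers, with -0.37 and -0.14 within time points, where Klkb1 was lowest at -0.54 (0.05 over all livers). These livers share groups, times and library depth, and the values describe likeness only.

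**Figure D5:**
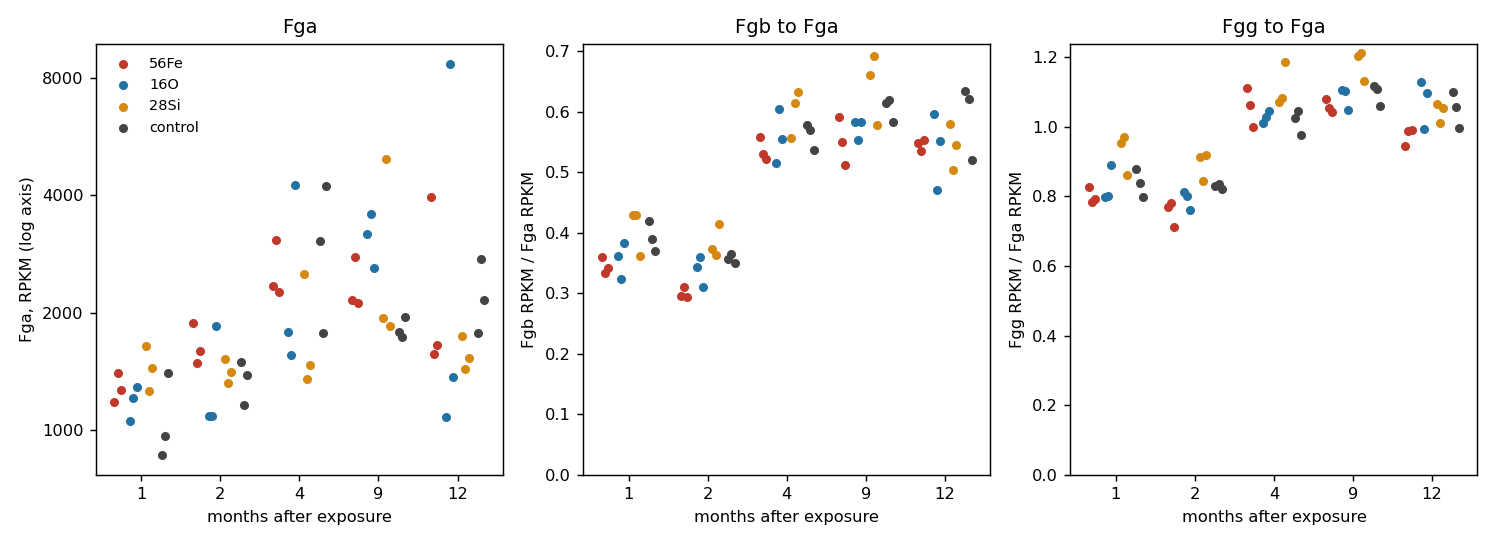
Fga level (RPKM, log axis) and the ratios of Fgb and Fgg to Fga in each of 60 mice by months and treatment. Fga reaches 8694 RPKM in 16O mouse 2 of 12 months, and the ratio of Fgb to Fga is 0.29 to 0.43 at 1 and 2 months and 0.47 to 0.69 at 4, 9 and 12 months in every treatment.

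The levels of many genes also differed between times in control mice. Of 44 genes, 29 differed among the 5 times in the 15 control livers (background 57.8%, limma), 26 of them higher and 3 lower at 12 months than at 1 month. The median log2 difference between 12 months and 1 month was 0.57 over the 44 genes and 0.01 over all genes. Scaled levels of Cfb were 11.1 to 16.2 RPKM in the 6 controls of 1 and 2 months and 22.8 to 37.3 RPKM in the 9 controls of 4 to 12 months (adjusted p = 1.6e-06), and those of Cfi were 116 to 149 RPKM and 246 to 394 RPKM (adjusted p = 2.6e-06). Cpb2, Pros1, F13b, Mbl2 and Fgb were among the 15 called genes whose later controls all lay above the earlier ones. The share of all genes with such a separation was not counted, and 57.8% of all genes differed among the times.

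Few genes went the other way. Masp1 was the only gene whose 9 later controls, at 25.3 to 39.8 RPKM, all lay below the 6 earlier ones, at 47.4 to 50.0 RPKM (log2 difference -0.46 between 12 months and 1 month), and C6 (-0.94) and Plg (-0.20) were also lower at 12 months. Proc, Vtn, C3 and Serpinc1 were not called (adjusted p = 0.471, 0.454, 0.465 and 0.185). Over all 60 mice 37 of 44 genes differed among times (background 78.2%). The share of mapped reads that fell in annotated transcripts was 43.4 to 66.4% at 1 and 2 months (24 livers) and 56.0 to 88.4% at 4 to 12 months (36 livers), and age, time and this difference between libraries cannot be told apart. The 45 genes made up 3.13 to 3.90% of the summed RPKM of a liver at 1 and 2 months and 3.49 to 8.91% at 4 to 12 months.

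The ions were also compared with each other, and with time. Among the 3 ions limma called 0 of 44 genes at 1 month (background 13.2%), 0 at 2 months (0.784%), 0 at 4 months (0.655%), 0 at 9 months (0.173%) and 0 at 12 months (0%), with 5, 9, 8, 4 and 2 genes at an unadjusted p under 0.05, against 30.5%, 20.8%, 15.2%, 14.6% and 2.59% of all genes. The smallest adjusted p was 0.0602 for Serpind1 at 1 month, 0.0882 for F13b at 2 months and 0.0570 for Cfb at 4 months. A single library decided the count at 2 and 4 months, since 19 of 44 genes (15.7% of all genes) were called without 16O mouse 3 of 2 months and 7 of 44 (1.87% of all genes) without 16O mouse 3 of 4 months. The effect of 56Fe differed among the 5 times for Mbl2 (background 0.998%, adjusted p = 0.0099), the effect of 16O for C8b (background 0.903%, adjusted p = 0.0321), and the effect of 28Si for 0 of 44 genes (background 0.0785%), with 14 at an unadjusted p under 0.05, against 10.6% of all genes. Leaving out 56Fe mouse 1 of 9 months left 0 genes for 56Fe. For 16O 0 were left without 16O mouse 2 of 2 months, 16O mouse 1 or control mouse 1 of 4 months, or 16O mouse 1, 2 or 3 or control mouse 2 or 3 of 9 months.

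Single transcripts of the 45 genes gave 3 calls, in 2 of the 15 comparisons. The C6-202 transcript (ENSMUST00000161997, 921 bases, protein coding, chr15:4727216-4759858) had 29.5, 24.8 and 57.8 RPKM in 16O irradiated mice of 9 months, against 1.29, 0.77 and 0.30 RPKM in control mice. It rose by a log2 fold change of 5.47 (SE 0.50, adjusted p = 0.0360, limma), the 1 call among 120 transcripts tested (background 0.0529%), and the call was lost without any one of the 6 livers (0.144, 0.0927 and 0.124 without 16O mouse 1, 2 or 3, and 0.0654, 0.209 and 0.0688 without control mouse 1, 2 or 3). In controls of other times C6-202 was between 0 and 34.3 RPKM, so that the low values were not shared by all controls. The longer C6-204 averaged 47.8 RPKM with 16O and 32.1 RPKM in controls of 9 months.

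With 28Si at 4 months 2 of 123 transcripts were called (background 0.371%). C8b-202 (ENSMUST00000065072, 1586 bases) had 22.03, 19.4 and 29.7 RPKM in 28Si irradiated mice against 11.2, 9.68 and 10.497 RPKM in control mice (log2 fold change 1.36, SE 0.12, adjusted p = 0.0109), while the main transcript C8b-201 averaged 184 RPKM with 28Si and 239 RPKM in controls. C4a-206 (ENSMUST00000160657, 526 bases, a retained intron) had 0.55, 0.69 and 0.76 RPKM with 28Si against 3.40, 2.98 and 4.33 RPKM in controls (log2 fold change -2.06, SE 0.27, adjusted p = 0.0459). Both sets of values were without overlap. C8b-202 kept its call without 28Si mouse 1 (0.0222) and lost it without 28Si mouse 2 (0.0566), 28Si mouse 3 (0.0560), control mouse 1 (0.0512), control mouse 2 (0.0539) or control mouse 3 (0.0527). C4a-206 lost it without any one of the 6 livers (0.106, 0.0911 and 0.135 without 28Si mouse 1, 2 or 3, and 0.142, 0.0987 and 0.152 without control mouse 1, 2 or 3).

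Other genes of the same cascades, receptors, factor H relatives and cell surface regulators among them, were taken from a list of 48. At 9 months 5 of 37 tested fell with 56Fe and 0 rose, where 3.65% of all genes were called. Cd59a, which keeps the pore from forming on host cells, was 18.3 ± 1.74 RPKM in 56Fe irradiated and 25.7 ± 0.81 RPKM in control livers (log2 fold change -0.50, adjusted p = 0.0318, limma), and F8, the cofactor of F9 made by endothelial cells, was 4.34 ± 0.14 RPKM in 56Fe irradiated and 8.02 ± 2.26 RPKM in control livers (-0.84, adjusted p = 0.0405). Cfhr2, Colec10 and Cr1l also fell, with log2 fold changes of -0.56, -0.51 and -0.45. F3, the tissue factor gene, rose with 16O at 1 month, to 2.65 ± 0.22 RPKM against 1.45 ± 0.04 RPKM in controls (0.86, adjusted p = 0.0317), the 1 call among 34 tested, where 1.6% of all genes were called. In the other 13 comparisons limma called 0 of 34 to 39 genes tested, with 0 to 12 at an unadjusted p under 0.05, against 2.14% to 15.2% of all genes. The 12 were of 35 tested with 28Si at 4 months, where 12.2% of all genes had such a p.

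Among 18 transcription factors and cytokine receptors known to act on liver secretory genes, Il1r1, the interleukin-1 receptor, rose with 16O at 1 month (8.52 ± 0.51 against 4.44 ± 0.56 RPKM in controls, log2 fold change 0.97, adjusted p = 0.0054, limma). It also rose at 9 months, to 13.7 ± 2.28 RPKM with 56Fe (adjusted p = 0.0318) and 12.3 ± 2.54 RPKM with 16O (adjusted p = 0.0442), against 5.48 ± 1.43 RPKM in the shared controls. Socs3, which is induced by interleukin-6 and damps its signal, rose with 56Fe at 9 months, at 10.4 ± 1.40 RPKM against 2.88 ± 1.82 RPKM (log2 fold change 1.99, adjusted p = 0.0366). Foxa1 with 56Fe at 9 months and Onecut1 with 16O at 1 month, both liver transcription factors, rose by log2 fold changes of 0.79 and 1.05. The calls were 3 of 18 for 56Fe at 9 months (3.65% of all genes), 2 of 18 for 16O at 1 month (1.6%) and 1 of 18 for 16O at 9 months (1.06%), and the list had no other call.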

How the data were processed

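Total RNA of 60 livers was depleted of ribosomal RNA and sequenced in pairs. The authors trimmed 14 bases from the start of each read, mapped to GRCm38 with annotation 97 in CLC Genomics Workbench 12.0.3 (95% length and similarity fractions) and deposited RPKM for 123811 transcripts in 60 libraries. The 20 deposited group means were not used. The authors tested read counts with edgeR, and here only RPKM was used. Values of up to 30 reads were whole multiples of 1 read within 0.02 for 99.8 to 100.0% of values per library, which gave the depth. Whether replicates deviated together was checked by number, and only 16O and control mice of 12 months did (r = 0.37, 0.52 and 0.25).

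RPKM was scaled by a trimmed mean (30% of ratios, 5% of levels) over the tested features, and log2(RPKM + 0.1) was tested with limma 3.58.1 (R 4.3.3; trend, moderated, 6 libraries per comparison, 2-sided) after a filter of 0.5 RPKM in 3 libraries. Fold changes are on this scale, which understates the change of low genes. Each p-value sets the difference between group means against the spread between the mice of a group, moderated toward the trend over all genes. Tables and figures used Python 3.11.15, pandas 2.3.3, numpy 2.4.6 and matplotlib 3.10.9, and the fits were tested on simulated data. Rank correlations of the 1770 library pairs were 0.845 to 0.991, so no 2 libraries held the same values. Full values are given for called members, for members with an absolute log2 fold change of at least 1 and no overlap, and for the highest and lowest levels. Other members were named by role, with their range or smallest adjusted p. Alternatives were a pseudocount of 1, no filter or one of 5 RPKM, no scaling, RLE scaling, 60 libraries in 1 fit, a replicate block, limma-voom on reads estimated from RPKM (at least 10), an added fold of 2, and leaving out each library. The C1 pattern, the C1 neighbours and the scaling over all features were added after seeing the data. The members and lists were chosen with earlier results of these data known. Sequences and starts are from RefSeq on GRCm38.p6, and 34 of 45 members matched.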

Additional observations from a re-analysis of the deposited data

Results flagged for a closer look

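The effect of 56Fe on Mbl2 differed among the 5 times (limma F-test of ion and time, adjusted p = 0.00992). Its log2 fold changes were 0.34, -0.03, 0.04, -0.66 and 0.06 at 1, 2, 4, 9 and 12 months, and the difference was no longer called without 56Fe mouse 1 of 9 months. Mean levels with 56Fe were 96.4, 99.4, 185.6, 177.8 and 199.1 RPKM, and those of controls were 77.5, 102.6, 183.9, 278.3 and 185.1 RPKM, so that the time standing apart was also the one with the highest control mean.

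The effect of 16O on C8b differed among the 5 times (adjusted p = 0.0321). Its log2 fold changes were 0.27, -0.06, -0.13, 0.82 and -0.04, from means of 111.4, 102.2, 230.6, 264.3 and 145.9 RPKM with 16O and 95.8, 107.5, 249.5, 149.9 and 161.0 RPKM in controls. The count for 16O lay between 0 and 3 genes when single libraries were left out.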

How the results depend on the processing

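Over 105 named differences, 743 of 780 settings kept direction and side of the threshold, 22 lost a call, 15 gained one and 0 reversed. Most of these were never called. The 105 differences were chosen in these same data, as called or as an absolute log2 fold change of at least 1 without overlap. A reversal was therefore unlikely from the start, and its absence gives no independent support. The 12 called genes and transcripts lost their call in 22 of 104 settings and, with single libraries left out, in 48 of 72, and 11 of the 12 lost it without at least 1 library. Among the others, 2 gained a call when a library was left out. Of the counts of called members, 285 of 336 stayed within 1.5 times. Most of the counts were 0 in the main fit, and a 0 that stayed 0 is among the 285. The cause of the changes was not tested, except that fewer members pass where a fold of 2 is also required.

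For 56Fe at 1 month the 1 gene called became 0 on RPKM as deposited, with all 60 libraries in 1 fit or with a fold of 2, 2 with a pseudocount of 1 or a replicate block, and 3 with a filter of 5 RPKM or limma-voom. For 16O at 1 month the 1 became 0 as deposited or with a fold of 2, 2 with voom and 4 with the block. At 9 months the 3 for 56Fe and for 16O became 1 each with no filter or a fold of 2. For 28Si at 4 months the 1 became 4 as deposited, 2 with scaling over all features and 0 with 60 libraries, a fold of 2 or the block, and at 9 months the 0 became 3 with 60 libraries. For the effect over times, the 16O count of 1 became 0 as deposited, with no filter or with all features, and the 56Fe count of 1 became 0 as deposited. Among the ions, the 0 at 1 month became 1 with a filter of 5 or the block, and the 0 at 4 months became 1 with a filter of 5 and 2 with all features.

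For transcripts, 16O at 9 months went to 2 with RLE scaling, a filter of 5 or a pseudocount of 1, 3 with 60 libraries and 0 with no filter or the block. With 28Si at 4 months the 2 became 1 as deposited or with no filter, 5 with a filter of 5, 4 with a pseudocount of 1 and 0 with 60 libraries or the block. From 0, 1 transcript was called with 60 libraries (1 month, all ions, and 28Si at 9 months), with a filter of 5 (1 month 56Fe and 16O, 28Si at 9 months), with a pseudocount of 1 (56Fe at 2 months) and as deposited (56Fe at 9 months, 2 with 60 libraries).

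Leaving out single libraries gave 0 to 5 genes for 56Fe at 1 month and 0 to 6 at 9 months, 0 to 1 and 1 to 3 for 16O, 0 to 1 for 28Si at 1 month and 0 to 2 at 4 months, 0 to 2, 0 to 3 and 0 to 1 for the effects of 56Fe, 16O and 28Si over times, 25 to 34 and 36 to 38 for times in controls and in all mice, and 0 to 1, 0 to 19 and 0 to 7 among ions at 1, 2 and 4 months. The 5 followed without control mouse 3 of 1 month and the 6 without control mouse 3 of 9 months. For transcripts the ranges were 0 to 0 for 16O at 9 months, 0 to 2 for 28Si at 4 months and 0 to 1 for 56Fe at 9 months.

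Replicate numbers are shared by all groups, but the labels state no pairing. For 56Fe and control mice of 12 months r by number was -0.43, -0.57 and 0.40. Mice of the same number deviated together only for 16O at 12 months, where the block changed 0 calls. Elsewhere the block lost the calls of F11 with 16O at 9 months (adjusted p = 0.0811) and Serping1 (0.134). Other settings gave an adjusted p over 0.05 for F11 with 56Fe (0.0933 as deposited, 0.0803 with 60 libraries) and 16O at 1 month (0.0901 as deposited), C6 (0.0715 with no filter, 0.0526 as deposited), Mbl2 (0.0514 with no filter), C8b (0.0759 with no filter) and F11 with 16O at 9 months (0.0781 with no filter, 0.111 with 60 libraries). With 3 mice a group, small differences could not be told from the spread between mice.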
